A study of Homo sapiens with 4 samples.

Results

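The serpin genes were followed in RNAseq of T24 cells, a human bladder carcinoma line, after forced expression of the catalytic domain of TET1 (TET1-CD). Members were every gene whose symbol was SERPIN followed by a clade letter from A to I and a number, which gave 34 of the 57879 genes in the files and 208 of their 195700 transcripts. They fell into clades A to I, of which clade B with 13 genes and clade A with 10 were the largest. T24 cells were infected with a lentiviral vector that was either empty (EV, called control in the labels) or carried FLAG-tagged TET1-CD, and both groups were puromycin-selected populations of this line, grown in RPMI with serum. Each group had 2 libraries. The labels do not say whether these came from separate cultures, so the p-values measure only the spread between these libraries, which may be technical.

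Serpins are a family of proteins with a shared fold, most of which trap a protease after it cuts an exposed reactive centre loop, so that inhibitor and enzyme are both used up. Clade A holds mainly secreted plasma proteins, clade B mainly intracellular inhibitors without a classical signal peptide, and clade E secreted inhibitors such as protease nexin-1. Some members do not inhibit proteases at all: SERPINH1 is the collagen chaperone HSP47, SERPINA6 carries cortisol in blood, and SERPINF1 is the anti-angiogenic factor PEDF. TET1 is a dioxygenase that oxidises 5-methylcytosine at CG dinucleotides, a step on the way to DNA demethylation.

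For this reason the DNA just before the start of the main transcript is shown for 4 members, written 5′ to 3′ along the gene, with each CG in capitals. They are the 3 members that rose at least 2-fold (SERPINB9, SERPINF1 and SERPIND1) and SERPINB7, which had the largest fall among members with 10 or more counts in every library. Each stretch is the 250 bases before the start of the transcript with most counts, read from GRCh37 with GENCODE starts.
SERPINB9 (chr6:2903544-2903793, minus strand): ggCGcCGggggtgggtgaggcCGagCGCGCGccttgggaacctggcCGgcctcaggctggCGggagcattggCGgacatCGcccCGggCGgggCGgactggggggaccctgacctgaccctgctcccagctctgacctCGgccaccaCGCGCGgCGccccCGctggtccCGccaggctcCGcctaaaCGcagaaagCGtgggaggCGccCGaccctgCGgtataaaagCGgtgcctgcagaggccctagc
SERPINF1 (chr17:1665104-1665353, plus strand): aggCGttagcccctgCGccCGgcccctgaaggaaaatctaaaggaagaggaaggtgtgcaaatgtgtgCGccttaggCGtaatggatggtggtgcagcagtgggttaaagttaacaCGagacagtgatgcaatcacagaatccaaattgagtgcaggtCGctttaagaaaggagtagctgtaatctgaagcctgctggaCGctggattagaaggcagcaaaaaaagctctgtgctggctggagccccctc
SERPIND1 (chr22:21128151-21128400, plus strand): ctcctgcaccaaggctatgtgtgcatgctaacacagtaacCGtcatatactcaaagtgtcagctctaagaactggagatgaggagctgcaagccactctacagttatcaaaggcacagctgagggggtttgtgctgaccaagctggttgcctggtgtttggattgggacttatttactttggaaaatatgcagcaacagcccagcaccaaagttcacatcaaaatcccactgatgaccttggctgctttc
SERPINB7 (chr18:61420031-61420280, plus strand): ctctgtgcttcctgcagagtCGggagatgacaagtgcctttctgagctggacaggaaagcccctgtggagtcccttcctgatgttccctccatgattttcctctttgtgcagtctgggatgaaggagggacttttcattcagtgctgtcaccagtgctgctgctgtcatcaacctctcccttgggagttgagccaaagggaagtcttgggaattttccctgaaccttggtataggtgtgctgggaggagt
The SERPINB9 stretch held 27 CG dinucleotides and that of SERPINF1 held 8. SERPIND1 and SERPINB7 had 1 each. The gene spans given further on are those of the files, whose annotation is another one. In it the spans of SERPINF1, SERPIND1 and SERPINB7 begin before the GENCODE start used here. Thus 101, 234 and 112 of their 250 bases lie inside the gene span. The GENCODE gene spans of SERPINF1 and SERPINB7 also begin before the transcript start used, at 1665323 and 61420169. The CG counts therefore depend on which start is taken. These are descriptions of the reference genome, and no methylation was measured in the files used here.

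The libraries held 17442143 to 20295266 estimated fragments each, and the totals of the groups overlapped. TET1 had 111 and 83 counts in EV against 2939 and 3310 in TET1-CD cells, 32.5-fold higher. Of 17 urothelial markers, KRT7, KRT8 and KRT18 had the most counts, whereas KRT5, KRT13 and KRT20 were at 0 in all 4 libraries, and the uroplakin genes UPK1A, UPK1B, UPK2 and UPK3A had at most 6 counts in a library. The summed level of the urothelial list was 2374 to 2394 CPM (counts scaled to library size) in EV and 2672 to 2705 in TET1-CD cells. Of the 8 urothelial markers with enough counts for a test, 5 were higher and 0 lower at an adjusted p under 0.05 by edgeR. These were 62.5% of those tested, against 19.7% of all genes tested, and 2 of them rose at least 2-fold. The median log2 fold change of the 8 was 0.36. The 7 fibroblast markers, all with counts, summed to 5.08 to 5.43 CPM in EV and 16.98 to 17.7 in TET1-CD cells. Only 2 of the 7 had enough counts for a test, with log2 fold changes of 0.48 and 1.89. The 6 leukocyte markers summed to 25.1 to 34.2 CPM in EV and 23.8 to 24.1 in TET1-CD cells, and the 6 hepatocyte markers to at most 0.231 CPM, with ALB, APOA1 and FGB at 0. The part of these differences in the serpin results was not tested. As RNA came from whole cultures, fewer cells that express a gene and less RNA per cell cannot be told apart.

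At least 1 count in some library was found for 27 of the 33 genes described here, and 18 had enough counts for a test by edgeR. Of these 18, 3 rose and 1 fell by at least 2-fold with an adjusted p under 0.05, which is 4 genes or 22.2% of those tested. Over all 14573 genes tested, 3.77% passed the same thresholds, with 2.72% higher and 1.04% lower. However, SERPINB9, SERPIND1 and SERPINA5 had enough counts only in TET1-CD cells and SERPINE3 only in EV cells, so that such genes could be tested only because they were high in 1 group, while SERPINF2 reached the minimum in a mix of libraries. Among the 13 serpins with enough counts in both groups, 1 passed. Without the fold threshold, 4 serpins were higher and 5 were lower at an adjusted p under 0.05 by edgeR's quasi-likelihood test, against 10.0% and 9.61% of all genes tested and 19.7% in either direction. This count of 9 was 5 without TET1-CD replicate 2. The libraries of the groups did not overlap for 13 of the 18 serpins, where 61.0% of all genes tested did not overlap. The median log2 fold change was 0.05 over the 18 serpins and 0.00095 over all genes tested.

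**Figure D1:**
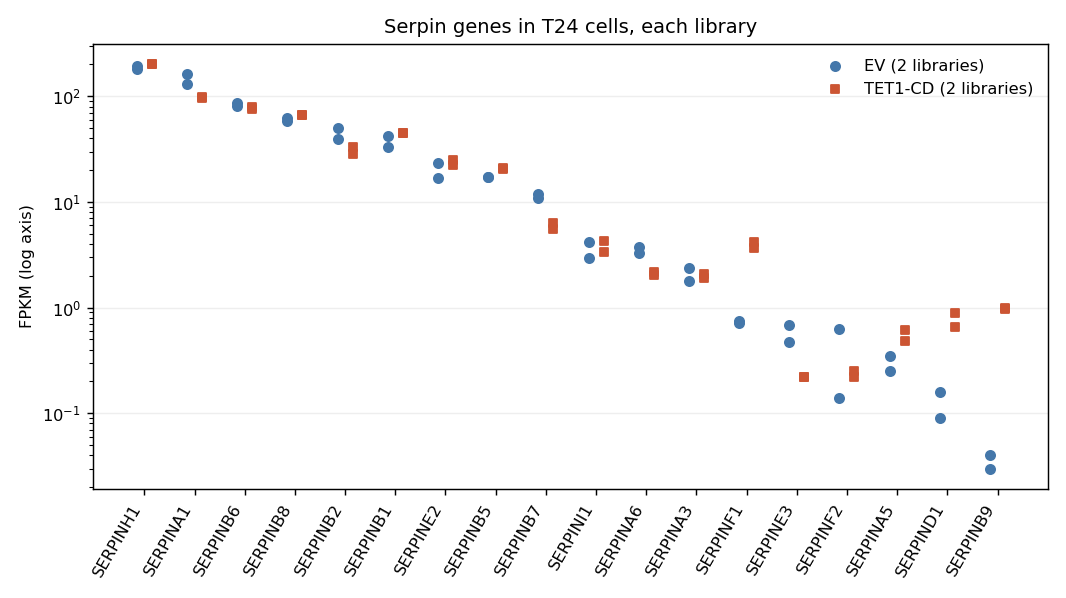
Level of the 18 tested serpin genes in each library, in FPKM (fragments scaled to transcript length and library size) on a log10 axis, with points for the 2 EV and the 2 TET1-CD libraries and genes ordered by their level in EV. SERPINH1 lies highest of the genes plotted, at 180 and 194 FPKM in EV against 200 and 201 in TET1-CD cells, and SERPINB9 shows the widest gap between groups, from 0.04 and 0.03 to 1 and 0.97 FPKM.

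Levels of different genes were compared in FPKM, which is scaled to transcript length. Among these 18 genes the order from the top in EV cells was SERPINH1 (180 and 194 FPKM), SERPINA1 (131 and 162 FPKM) and SERPINB6 (80.7 and 86.9 FPKM). SERPINB8 followed at 58.9 and 62.3 FPKM, and none of these neighbours overlapped each other. In TET1-CD cells SERPINH1 had 200 and 201 FPKM, while SERPINA1 had 97.0 and 98.8 FPKM. Thus a collagen chaperone stood above a secreted elastase inhibitor in both groups. At the other end, SERPINB9 and SERPIND1 were the lowest of the 18 in EV cells.

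Among intracellular serpins of clade B, 7 of 13 genes were tested, with 2 higher and 2 lower at an adjusted p under 0.05. These were 57.1% of those tested, against 19.7% of all genes, and SERPINB9 among them had enough counts only in TET1-CD cells. The median log2 fold change of the clade was 0.08, which was -0.14 without EV replicate 1. SERPINB9, the intracellular inhibitor of granzyme B, spans 2887500 to 2903514 on the minus strand of chromosome 6 in the files (GRCh37). It had 3 and 2 counts in EV against 72 and 78 in TET1-CD cells. Both TET1-CD libraries lay far above both EV libraries, in which the gene was close to undetected. The ratio of the group levels was 30.3, with a 95% interval of 12.7 to 94.7 that covers counting error only. By edgeR's quasi-likelihood test its adjusted p was 2.76e-05, and the fitted log2 fold change of 4.85 (standard error, SE, 0.38) depends on how the few EV counts are treated.

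Other clade B members moved far less. SERPINB5 encodes maspin, a member without protease inhibition that is known as a tumour suppressor in epithelia. It had 960 and 830 counts in EV against 996 and 1130 in TET1-CD cells, which in CPM was 47.7 ± 0.371 and 57.2 ± 0.618 (SD, n = 2). Its log2 fold change was 0.26 (SE 0.06, adjusted p = 0.0157, edgeR), the smallest change among those that passed. DESeq2 gave it an adjusted p of 0.0778, and edgeR without TET1-CD replicate 1 or 2 one of 0.165 or 0.166.

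SERPINB7, or megsin, had 363 and 352 counts in EV against 157 and 213 in TET1-CD cells. All TET1-CD values lay below those of EV, with 19.1 ± 1.70 CPM in EV and 9.90 ± 1.36 CPM in TET1-CD cells (SD, n = 2). Its log2 fold change of -0.94 (SE 0.13, adjusted p = 8.17e-04, edgeR) is 1.92-fold lower, just under the fold threshold, which it passed without EV replicate 1 or TET1-CD replicate 2. SERPINB2, the plasminogen activator inhibitor PAI-2, had 1526 and 1660 counts in EV against 1103 and 1059 in TET1-CD cells. It too was lower in both TET1-CD libraries, with a log2 fold change of -0.55 (SE 0.11, adjusted p = 0.00707, edgeR). Without TET1-CD replicate 2, the adjusted p of SERPINB2 was 0.0754.

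The remaining clade B genes did not pass the test. SERPINB6, an inhibitor of thrombin and cathepsin G, had 2490 and 2257 counts in EV against 2045 and 2213 in TET1-CD cells (log2 fold change -0.14, SE 0.06, adjusted p = 0.11 by edgeR). SERPINB8, which can inhibit furin, had 3272 and 2998 counts in EV against 3195 and 3451 in TET1-CD cells (log2 fold change 0.10, SE 0.06, adjusted p = 0.271 by edgeR). In CPM the groups did not overlap for either gene. Leaving out EV replicate 1 gave SERPINB6 an adjusted p of 0.0125, and leaving out EV replicate 2 gave SERPINB8 one of 0.0381. SERPINB1, the elastase inhibitor of leukocytes, had 1346 and 1447 counts in EV against 1397 and 1538 in TET1-CD cells, and its groups overlapped in CPM (log2 fold change 0.08, SE 0.09). Without EV replicate 2, SERPINB1 had a log2 fold change of 0.25 (adjusted p = 0.00487, edgeR), and without EV replicate 1 it had -0.09. SERPINB4 had 3, 12, 4 and 6 counts across EV replicates 1 and 2 and TET1-CD replicates 1 and 2, and SERPINB3 at most 1. Those 2 squamous cell carcinoma antigens are near-identical paralogs, so the split of reads between them is uncertain. SERPINB10 and SERPINB13 had at most 2 counts in a library, and SERPINB11 and SERPINB12 were at 0 throughout.

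**Figure D2:**
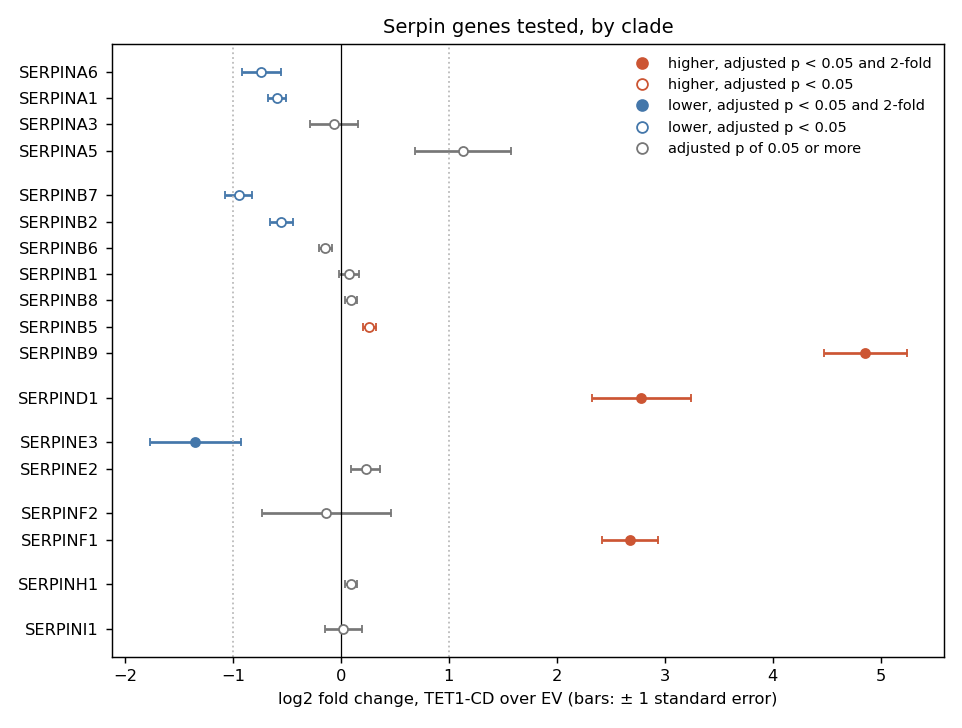
Log2 fold change of each tested serpin in TET1-CD over EV cells, with bars of ± 1 standard error from edgeR, grouped by clade. Filled points passed both the 2-fold and the adjusted p threshold, open coloured points only the latter, and SERPINB9, SERPIND1 and SERPINF1 lie at 4.85, 2.78 and 2.68.

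In clade E, SERPINE3 fell and SERPINE2 did not pass the test. SERPINE2, or protease nexin-1, which inhibits thrombin and urokinase, had 730 and 883 counts in EV against 942 and 942 in TET1-CD cells, and the groups overlapped in CPM. Its log2 fold change was 0.23 (SE 0.13, adjusted p = 0.264, edgeR), but the adjusted p was 0.0359 with no filter. Without EV replicate 2 the log2 fold change was 0.49 with an adjusted p of 1.96e-04, and without EV replicate 1 it was -0.01.

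SERPINE3 spans 51909909 to 51938871 on the plus strand of chromosome 13. It had 22 and 27 counts in EV against 9 and 10 in TET1-CD cells. The groups did not overlap, and the log2 fold change was -1.35 (SE 0.42, adjusted p = 0.0492, edgeR), or 2.55-fold lower. The call rests on the choice of test, as the adjusted p was 0.226 with DESeq2 and 0.0533 with limma-voom. Without EV replicate 2 it was 0.192, and without TET1-CD replicate 1 or 2 it was 0.263 or 0.257. SERPINE3 also overlaps INTS6 on the opposite strand, with 789 of its 2608 exon bases shared. INTS6 had 1453 and 1195 counts in EV against 1312 and 1448 in TET1-CD cells (log2 fold change 0.08). RP11-24B19.3, also on the opposite strand, overlaps SERPINE3 over 785 bases, with 0 shared exon bases found. RP11-24B19.3 had 79 and 49 counts in EV against 38 and 32 in TET1-CD cells (log2 fold change -0.84, adjusted p = 0.0514 by edgeR). Whether the counting used strand is not given in the sources used here, so the reads of SERPINE3 and INTS6 may not have been told apart.

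Heparin cofactor II, which inhibits thrombin and is encoded by SERPIND1, rose. In the files the gene spans 21128167 to 21142008 on the plus strand of chromosome 22, whereas GENCODE starts its main transcript at 21128401. It had 4 and 6 counts in EV against 28 and 42 in TET1-CD cells, and the lowest TET1-CD library stood well above the highest EV library. The ratio of group levels was 7.07 (95% counting interval 3.63 to 15.4), and the log2 fold change was 2.78 (SE 0.46, adjusted p = 0.00268, edgeR). SERPIND1 lies within PI4KA on the opposite strand but shares no exon bases with it. PI4KA had 1040 and 841 counts in EV against 990 and 1181 in TET1-CD cells, a log2 fold change of 0.22. Antithrombin, another heparin-dependent thrombin inhibitor and the product of SERPINC1, had 1 count in EV replicate 1 and 0 in the other libraries.

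In clade F, SERPINF1 rose whereas its close neighbour SERPINF2 did not pass the test. SERPINF1 (PEDF) spans 1665253 to 1680868 on the plus strand of chromosome 17 in the files, with the GENCODE start of its main transcript at 1665354. It had 15 and 12 counts in EV against 83 and 89 in TET1-CD cells. The groups were far apart, at 0.717 ± 0.0338 CPM and 4.63 ± 0.135 CPM (SD, n = 2). Its log2 fold change was 2.68 (SE 0.26, adjusted p = 1.06e-04, edgeR), or 6.39-fold, and it was the only serpin called that had enough counts in both groups. SERPINF2 encodes alpha-2-antiplasmin, the main plasmin inhibitor of blood. It had 6 and 16 counts in EV against 10 in each TET1-CD library, so its groups overlapped (log2 fold change -0.13, SE 0.60, adjusted p = 0.904 by edgeR). The first base of SERPINF1 lies 6691 bases past the end of SERPINF2.

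In clade A, 2 of the 4 tested genes were lower at an adjusted p under 0.05, as were 9.61% of all genes tested. SERPINA1, alpha-1-antitrypsin, had 4552 and 4778 counts in EV against 2904 and 3282 in TET1-CD cells. The groups did not overlap, at 250 ± 36.2 CPM in EV and 166 ± 1.34 CPM in TET1-CD cells (SD, n = 2). The log2 fold change was -0.59 (SE 0.08, adjusted p = 0.00129, edgeR). SERPINA6, the cortisol carrier, had 100 and 97 counts in EV against 58 and 59 in TET1-CD cells, with TET1-CD again below EV in both libraries. It had a log2 fold change of -0.74 (SE 0.18, adjusted p = 0.0192, edgeR). SERPINA6 did not pass with DESeq2, with an adjusted p of 0.126, and without TET1-CD replicate 1 or 2, with 0.102 or 0.145.

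SERPINA5, the inhibitor of activated protein C, had 10 and 7 counts in EV against 18 and 19 in TET1-CD cells. Its groups did not overlap, yet the log2 fold change of 1.13 (SE 0.44) had an adjusted p of 0.105 by edgeR. SERPINA3, an inhibitor of cathepsin G, had 57 and 65 counts in EV against 53 and 63 in TET1-CD cells, and its groups overlapped (log2 fold change -0.07, SE 0.22). The median over the 4 tested clade A genes was -0.33 on the log2 scale. It was -0.74 with no filter, -0.51 without EV replicate 1 and -0.15 without EV replicate 2. Too few counts for a test were found for SERPINA9 (9 and 7 in EV, 1 and 3 in TET1-CD), SERPINA10 (5 and 5 in EV, 0 and 3 in TET1-CD) and SERPINA12 (6 in EV replicate 2 only). The ratio of group levels for SERPINA9 was 0.253, with a 95% counting interval of 0.0615 to 0.783. SERPINA4, SERPINA7 and SERPINA11 were at 0 in all 4 libraries.

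SERPINH1, the chaperone of procollagen in the endoplasmic reticulum, had 8063 and 7494 counts in EV against 7772 and 8735 in TET1-CD cells. In CPM these were 416 ± 24.5 and 444 ± 1.84 (SD, n = 2), a log2 fold change of 0.10 (SE 0.06, adjusted p = 0.272, edgeR). The groups did not overlap, but the difference was close to the spread of the EV libraries. Without EV replicate 2 its adjusted p was 0.0134. SERPINI1, neuroserpin, an inhibitor of the tissue plasminogen activator, had 92 counts in each EV library and 81 and 105 in TET1-CD cells, and overlapped (log2 fold change 0.02, SE 0.17). SERPING1, the C1 inhibitor of complement, had 1 count in each TET1-CD library and 0 in EV, and SERPINI2 was at 0 throughout.

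Many serpin genes lie side by side, and members of the same cluster differed in their values. SERPINB9 lies between SERPINB1 and SERPINB6 on chromosome 6, with gaps of 45260 and 44879 bases. While SERPINB9 rose, the log2 fold changes of these neighbours were 0.08 and -0.14, and neither passed the test. On chromosome 18, SERPINB5 was higher, SERPINB7 and SERPINB2 lower by log2 values of 0.94 and 0.55, and SERPINB8 did not pass. SERPINA1 and SERPINA6, both lower, are neighbours on chromosome 14 with 53353 bases between them, and SERPINA5 and SERPINA3 further along did not pass. On the other side of SERPINA6, 24513 bases away, PPP4R4 is not a serpin and was lower too (log2 fold change -0.34, adjusted p = 0.0341 by edgeR). The tested gene beyond it, IFI27L2, did not pass (log2 fold change 0.26).

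**Figure D3:**
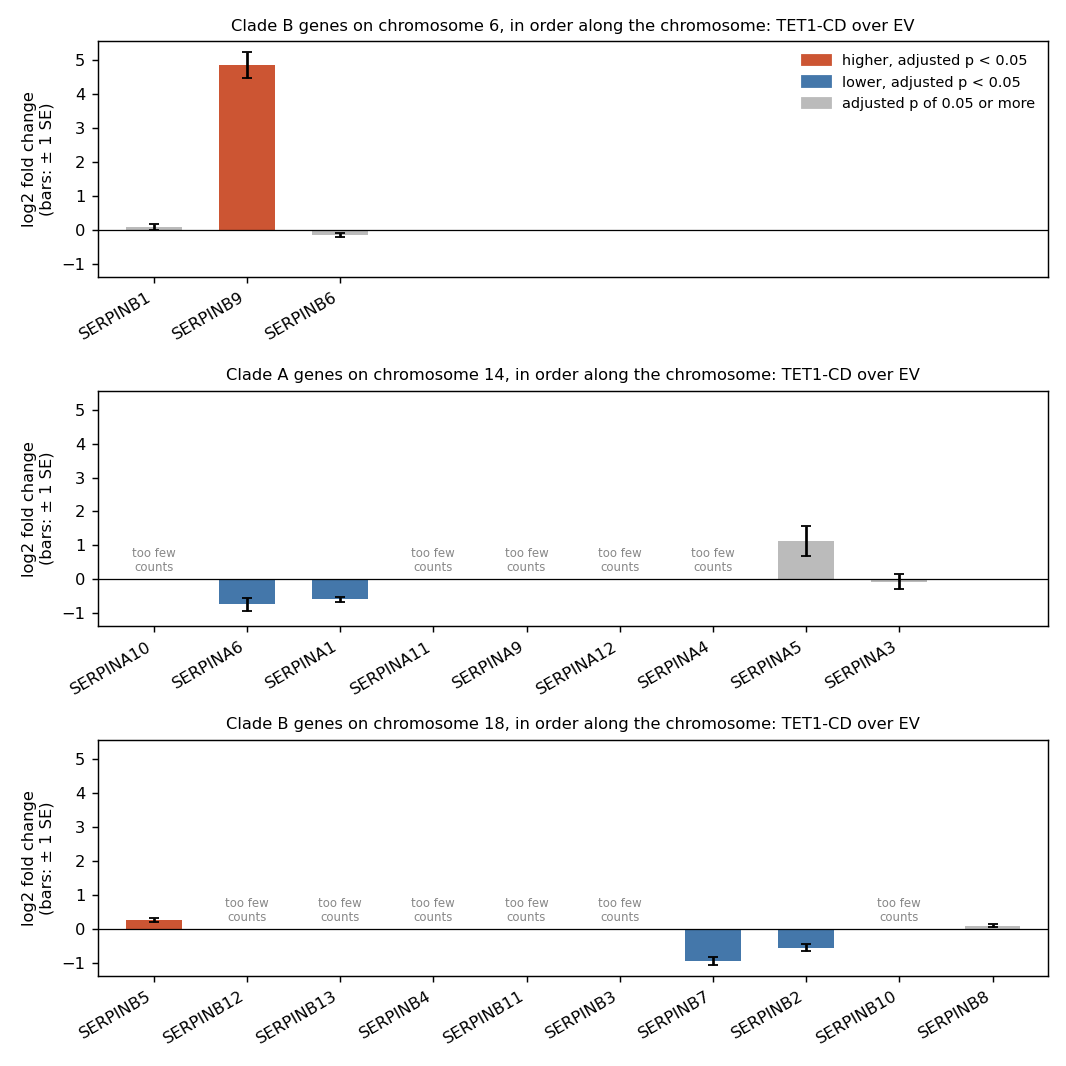
Log2 fold change (TET1-CD over EV, bars of ± 1 standard error from edgeR) for serpin genes in their order along chromosomes 6, 14 and 18, with genes that had too few counts marked. The bar of SERPINB9 reaches 4.85 between SERPINB1 at 0.08 and SERPINB6 at -0.14, while SERPINA6 and SERPINA1 stand side by side at -0.74 and -0.59.

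At the level of transcripts, 43 transcripts of 16 serpin genes could be tested. By edgeR none passed an adjusted p of 0.05, the lowest being 0.144, and 0.00231% of all transcripts tested did. An unadjusted p under 0.05 was found for 12 of the 43, against 11.2% of all transcripts tested. DESeq2 passed 9 of the 43 by adjusted p, where it passed 6.39% of all transcripts. Of these 9, 4 also changed at least 2-fold, as did 2.81% of all transcripts. They belong to SERPINB9, SERPIND1, SERPINF1 and SERPINB7, so they repeat the counts of these genes. Those of SERPINB9, SERPIND1 and SERPINF1 had at most 7.1 counts in an EV library. They could be tested only because they were high in TET1-CD cells. SERPINB9 has a single transcript in the files. SERPINA1 counts were mainly from ENST00000393087, which held 74.3% to 78.5% of them per library, so the same transcript led in all 4 libraries. In SERPINF1, the share of ENST00000254722 was 47.6% and 48.5% in EV against 68.0% and 80.4% in TET1-CD cells, on very few EV counts.

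In SERPINB1, which did not pass the test as a gene, transcript shares differed between the groups. Its main transcript ENST00000380739 held 79.4% and 76.0% of the gene's counts in EV against 64.9% and 65.8% in TET1-CD cells. ENST00000490094 had 114 and 107 counts in EV against 177 and 197 in TET1-CD cells, and DESeq2 gave it an adjusted p of 0.0205, against 0.29 by edgeR. SERPINB6 did not pass as a gene either. Its transcript ENST00000335686 held 41.2% and 34.4% of the gene's counts in EV against 30.8% and 32.2% in TET1-CD cells. For the counts of ENST00000335686, DESeq2 gave an adjusted p of 0.0101, against 0.283 by edgeR. The shares themselves were not tested. These counts were divided among transcripts by the authors' software, and the error of that division is not in the files.

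Tested serpins had few CG dinucleotides at their starts. In the 300 bases from 250 before to 50 after the start of the main transcript, the median was 9 for the 17 tested serpins with a window and 26 for the 13485 tested genes with one. A count of 15 or more was found in 29.4% of the serpins and 78.1% of all tested genes, and at least 1 CG in 99.1% of all. Among genes called higher the median was 18, and among those called lower 11. The members that rose at least 2-fold were not alike in this respect, with 35 CG in the SERPINB9 window, 9 in that of SERPINF1 and 2 in that of SERPIND1. SERPINB5, higher at an adjusted p under 0.05 by edgeR but by less than 2-fold, had 16 CG. Of the tested genes, 78.3% had as many CG as SERPINB9 or fewer. SERPINE2 (47 CG), SERPINH1 (28 CG) and SERPINB1 (27 CG), which did not pass the test, also had many. Of the members that were lower at an adjusted p under 0.05 by edgeR, SERPINA1 had 12 CG, SERPINE3 had 9, SERPINA6 had 4, and SERPINB7 and SERPINB2 had 1 each.

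**Figure D4:**
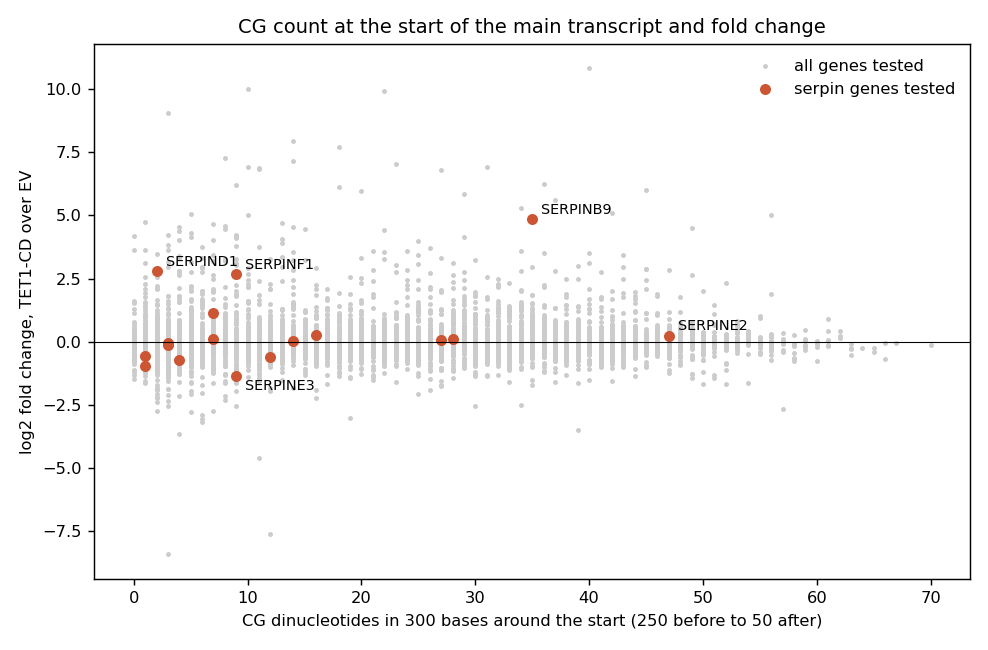
Number of CG dinucleotides in the 300 bases around the start of the main transcript against the log2 fold change of TET1-CD over EV cells, with 1 point per tested gene and serpins in colour. SERPINB9 stands apart at 35 CG with a log2 fold change of 4.85, whereas SERPIND1 and SERPINF1 lie at 2 and 9 CG.

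The 4 lists of serpin targets, receptors and partners held 60 tested genes. Of these, 2 were called at 2-fold, which is 3.33% against 3.77% of all genes tested. Without the fold threshold, 12 were higher and 9 lower at an adjusted p under 0.05 by edgeR, which is 35.0% against 19.7% of all genes tested. This count of 21 was 13 without TET1-CD replicate 1 and 11 without TET1-CD replicate 2. Of 31 genes of the plasminogen and clotting system, 19 were tested, with 5 higher and 4 lower at an adjusted p under 0.05 by edgeR and a median log2 fold change of -0.11. These 9 were 47.4% of those tested, and each changed by less than 2-fold. PLAT, the tissue plasminogen activator, had 1872 and 1577 counts in EV against 2483 and 3145 in TET1-CD cells. It was higher in both TET1-CD libraries (log2 fold change 0.72, SE 0.07, adjusted p = 9.19e-05 by edgeR). TFPI, the tissue factor pathway inhibitor, had 1568 and 1426 counts in EV against 803 and 1035 in TET1-CD cells (log2 fold change -0.70, SE 0.08, adjusted p = 2.55e-04 by edgeR). LRP1, the endocytic receptor that clears complexes of serpins with proteases, had 2921 and 2583 counts in EV against 1898 and 2239 in TET1-CD cells (log2 fold change -0.40, SE 0.06, adjusted p = 0.00119 by edgeR).

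Of 47 genes of cell and granule proteases in the files, 15 were tested, with 2 higher and 2 lower at an adjusted p under 0.05 and a median log2 fold change of 0.01. The 4 genes were 26.7% of those tested, near the 19.7% of all genes. CTSH, a lysosomal cathepsin, had 90 and 63 counts in EV against 191 and 192 in TET1-CD cells (log2 fold change 1.34, SE 0.15, adjusted p = 3.39e-04 by edgeR). C1R, a complement protease that the C1 inhibitor blocks, had 1210 and 1348 counts in EV against 579 and 670 in TET1-CD cells, 2.04-fold lower (log2 fold change -1.03, SE 0.11, adjusted p = 2.22e-04 by edgeR). These were the 2 called at 2-fold, and PRSS23 was lower with a log2 fold change of -0.34 (adjusted p = 0.002, edgeR, and 0.0678 without TET1-CD replicate 2). Listed at 0 in all 4 libraries were 19 of the 47 genes, among them GZMB, the target of SERPINB9, and ELANE and CTSG, targets of SERPINA1 and SERPINA3.

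The 21 procollagen folding genes, which work with SERPINH1, were all tested, and 4 were higher and 2 lower at an adjusted p under 0.05, each by less than 2-fold, and the median over all 21 was 0.12 on the log2 scale. The 6 that passed were 28.6% of those tested, where 19.7% of all genes passed. PLOD1 and PLOD2, both lysyl hydroxylases, moved apart, with log2 fold changes of 0.45 (adjusted p = 3.39e-04, edgeR) and -0.45 (adjusted p = 4.02e-04, edgeR). P4HA1, a subunit of prolyl 4-hydroxylase, fell by 0.43 on the log2 scale (adjusted p = 4.72e-04, edgeR). Among 9 receptors and partners of serpins, 5 were tested and 2 passed, which is 40.0% of those tested against 19.7% of all genes. VLDLR, an endocytic receptor, had 591 and 522 counts in EV against 357 in each TET1-CD library (log2 fold change -0.62, adjusted p = 0.00146 by edgeR). LRP8 had 627 and 482 counts in EV against 709 and 837 in TET1-CD cells (log2 fold change 0.50, adjusted p = 0.00276 by edgeR). The laminin receptor gene RPSA did not pass (log2 fold change 0.07, adjusted p = 0.378 by edgeR).

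**Figure D5:**
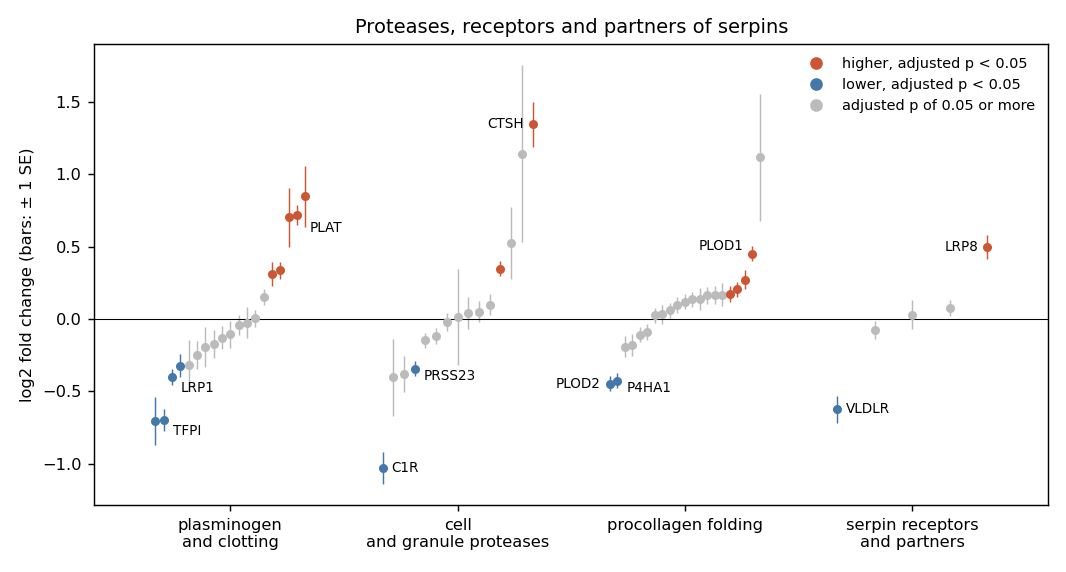
Log2 fold change (TET1-CD over EV, bars of ± 1 standard error from edgeR) for the tested genes of 4 lists of serpin targets, receptors and partners. CTSH at 1.34 and C1R at -1.03 lie outermost among the genes that passed, and PLAT at 0.72 and TFPI at -0.70 lie on opposite sides of 0 in the plasminogen and clotting list.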

How the data were processed

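Poly(A) RNAseq libraries of T24 cells, 2 from EV and 2 from TET1-CD cells, were grouped by their titles. The authors deposited 2 values per transcript and library. The first is the authors' expected count, an estimated number of fragments that can be a fraction. The second, also made by the authors, is an FPKM, which divides by transcript length and library size. The submitters' processing notes name cutadapt 1.9.1, HISAT2 2.0.1, HTSeq 0.6.1, DESeq2 and hg19, without roles. The software behind the estimates and the annotation release are not given in the sources used here.

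Expected counts were added up per gene and rounded, and FPKM values were added up over its transcripts. Depth was 17442143 to 20295266 fragments. Genes kept by filterByExpr were tested with edgeR 4.0.16 in R 4.3.3 (TMM, glmQLFit, glmQLFTest, no block), with Benjamini-Hochberg adjustment over all 14573 genes tested. A gene was called at an adjusted p under 0.05 with at least a 2-fold change. CPM values use each library's total over the genes kept, multiplied by its TMM factor. The SE is the log2 fold change over the square root of F. Ratio intervals are exact 95% intervals of the summed counts. The steps were tested on simulated data. Alternatives were DESeq2 1.42.0, RLE or plain library size as scaling, other filters (none, or 10 counts per library throughout), the replicate number as a block, limma-voom (limma 3.58.1), glmTreat against 1.5-fold, the ratio of mean FPKM and omission of each library.

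The serpins with counts were named, with, from each list, the genes called and up to 3 with the smallest p. The members and lists were chosen with earlier results of these data known. Windows at transcript starts were found for 31 serpins. The values of 1 member are not reported here and are left out of the counts.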

Additional observations from a re-analysis of the deposited data

How the results depend on the processing

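The serpins SERPINA1, SERPINB7, SERPINB9, SERPIND1 and SERPINF1 kept their direction and an adjusted p under 0.05 in every alternative in which they were tested, except that glmTreat, a test against a 1.5-fold change, passed SERPINB9, SERPIND1 and SERPINF1. With 10 counts required in every library, 1 serpin was called, as this filter drops SERPINB9, SERPIND1 and SERPINE3. DESeq2, limma-voom and glmTreat each called 3, without SERPINE3. Leaving out each library gave 3 to 5 serpins called and 5 to 12 past the adjusted p, with 5 without TET1-CD replicate 2. It gave 2 to 3 list genes called and 11 to 28 past the adjusted p, against 21 with all libraries, and was 13 and 11 without TET1-CD replicates 1 and 2. A library left alone in its group is assumed here to vary like the other group. Clade medians on the log2 scale ranged over these omissions from -0.51 to -0.15 (A) and -0.14 to 0.14 (B), and that of clade A was -0.74 with no filter. The log2 fold change of TET1 was 4.93 to 5.12. Changes of sign occurred for serpins that did not pass the test. Without 1 library the log2 fold change ranged from -0.28 to 0.15 for SERPINA3 (0.15 without EV replicate 2), -0.090 (without EV replicate 1) to 0.25 for SERPINB1, -0.014 (without EV replicate 1) to 0.49 for SERPINE2, -0.78 to 0.85 (without EV replicate 2) for SERPINF2, and -0.097 (without EV replicate 1, and -0.091 without TET1-CD replicate 2) to 0.13 for SERPINI1. SERPINF2 had 0.074 with limma-voom. The 2 EV libraries differed more from each other than the 2 TET1-CD libraries did, with a chi-square per gene of 6.41 against 2.75. The cause of the changes of sign was not tested. DESeq2 called 4 serpin transcripts.

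With the replicate number as a block, 4 serpins were called and 9 passed the adjusted p, as without it. The labels do not say that a number marks a shared culture. Deviations of same-numbered libraries had a correlation of 0.00713 across genes, which shows no sign of pairing. With 2 libraries per group, whether such libraries shared a culture or batch cannot be told.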
